A study of Mus musculus with 60 samples.

Results

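Cultures of Balb/c 3T3, an established mouse embryo fibroblast line in which chemical transformation is scored, were exposed for 120 h to 0.1 µM 3-methylcholanthrene (MCA). MCA is a polycyclic aromatic hydrocarbon and a carcinogen, and 0.1 µM is the dose the study calls its IC20 for this time. The members were chosen by their titles: 3 arrays of MCA-treated cells and the 3 arrays of cells kept for 120 h in 0.75% DMSO, the solvent, in the same second approach of the study. These 6 arrays are part of 30 in the second approach and of 60 in the whole series. The other arrays of the second approach used beside them at 120 h held cells given 0.1 µM benzo(a)pyrene (BaP), 10 µM 2-acetylaminofluorene (AAF) or 0.2 µM 2,4-diaminotoluene (DAT), each on 3 arrays. At 24 h, 3 arrays held cells given 20 µM MCA and 3 held DMSO controls. The remaining arrays of the second approach, also at 24 h, entered only the normalisation, the choice of genes and the estimate of spread. They held cells given 10 µM AAF, or BaP or DAT at higher doses than at 120 h, on 3 arrays each. The first approach gave 2 µM MCA for 120 h with its own DMSO controls, again 3 arrays each. All groups are the same line from BALB/c mice, seeded sparsely and treated before the dishes were confluent. The labels speak of triplicates without stating that they were separate cultures, so the p-values reflect only how much these arrays vary, and that variation may be technical. The RNA came from whole cultures, so fewer cells of a kind and less RNA per cell cannot be told apart.

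MCA enters cells and binds the aryl hydrocarbon (Ah) receptor, a transcription factor held in the cytoplasm until a planar aromatic ligand binds it. The bound receptor moves to the nucleus, pairs with Arnt, and turns on genes that carry its DNA element. The best known of these encode cytochrome P450 enzymes that oxidise the hydrocarbon itself, which clears it and also makes the metabolites that damage DNA. Tiparp and Ahrr are receptor-induced genes whose products damp the receptor in turn.

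Expression was read on single-colour oligonucleotide arrays. A level below is a quantile-normalised intensity on a linear scale, and levels of different genes cannot be set against each other because each comes from its own probe set. A difference is MCA minus DMSO of log2(intensity + 16) with 3 arrays a group, and the added 16 understates the change of dim genes. Its ± SE comes from limma's fit, which takes the spread from all 30 arrays of the second approach and not from the 6 arrays alone. A gene rose or fell where limma's adjusted p was under 0.05 over the 11384 genes tested. Of these genes 324 passed, which is 2.85% of those tested, with 173 higher (1.52%) and 151 lower (1.33%) with MCA. In 319 of the 324, all 3 MCA arrays lay beyond all 3 DMSO arrays, as they did in 8.56% (higher) and 5.54% (lower) of all genes tested. Changes of at least 2-fold numbered 75, of which 34 were higher and 41 lower. The median difference of all genes tested was 0.02. In limma's fit 1289 of the 11384 genes had an unadjusted p under 0.05, in either direction. With the replicate number as a block, since same-numbered arrays deviated together, 1343 genes passed (749 higher, 594 lower). A list's count with the block, given below, stands beside these 749 and 594 of 11384 genes, not beside the main fit's shares. In a fit of the 6 arrays alone 103 passed.

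**Figure D1:**
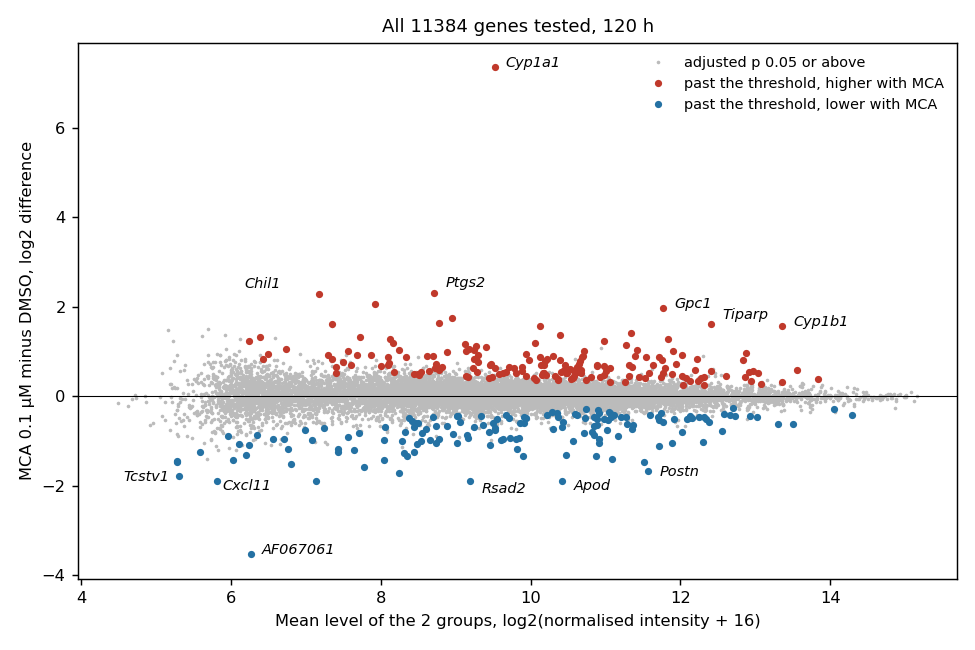
Each point is 1 of the 11384 genes tested, with its mean level over the 2 groups on the x axis (log2 of normalised intensity + 16) and MCA 0.1 µM minus DMSO at 120 h on the y axis (log2). Cyp1a1 at 7.35 and AF067061 at -3.53 lie at the extremes, and the 173 higher and 151 lower genes are coloured.

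The median deposited intensity was 95.1, 80.6 and 76.2 on the MCA arrays and 98.9, 89.7 and 81.8 on the DMSO arrays, and each array correlated on average at 0.97 to 0.98 with its fellow replicates. As a sign of RNA quality, the log2 ratio of 3′ to 5′ probe sets was 0.578 ± 0.176 with MCA and 0.537 ± 0.121 with DMSO for actin, and -0.36 ± 0.128 and -0.464 ± 0.08 for Gapdh (SD, n = 3 each). The Gapdh ratio was higher with MCA in each of the 3 same-numbered pairs, and its part in the results was not tested. The cells carried the fibroblast markers, with a summed level over 10 of 10 markers of 149307 to 172631 with MCA and 165118 to 179723 with DMSO. Of these markers only the collagen Col3a1 passed, lower with MCA. Markers of adipocytes (3 of 10 tested), skeletal muscle (2 of 7), epithelium (2 of 8), endothelium (1 of 8) and macrophages (4 of 8) held 0 genes past limma's threshold, and 1 of those 12 members, the macrophage marker Cd14 at 0.40, had an unadjusted p under 0.05. With the block Cd14 and the adipocyte marker Lpl at 0.32 passed (adjusted p = 0.021 and 0.00325). A second Lpl probe set, above the array median on all 30 arrays, was at 0.72 (limma's unadjusted p = 0.000604 without the block). The part of Cd14 and Lpl in the results was not tested. Summed levels of these marker lists were 37 to 105 with MCA and 85 to 106 with DMSO for muscle, 99 to 198 and 185 to 229 for epithelium, 24 to 54 and 19 to 56 for endothelium, and 1034 to 1515 and 1044 to 1304 for macrophages. For adipocytes they were 8470 to 11108 with MCA and 7179 to 8992 with DMSO, of which Lpl, lipoprotein lipase, made most.

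Promoter windows are shown first for the Ah receptor genes described next and then for interferon-stimulated genes that fell. They are RefSeq sequences of GRCm38.p6, 250 bases before to 50 bases after the gene start, written 5′ to 3′ along the gene's strand. Capitals mark GCGTG, the core of the Ah receptor element, on either strand (CACGC on the strand opposite), in the windows of Cyp1a1 (chr9:57697363-57697662, + strand), Cyp1b1 (chr17:79715012-79715311, - strand) and Tiparp (chr3:65528197-65528496, + strand). The match begins 54, 76 and 170 bases before the start of Cyp1a1, Cyp1b1 and Tiparp in that order.
Cyp1a1: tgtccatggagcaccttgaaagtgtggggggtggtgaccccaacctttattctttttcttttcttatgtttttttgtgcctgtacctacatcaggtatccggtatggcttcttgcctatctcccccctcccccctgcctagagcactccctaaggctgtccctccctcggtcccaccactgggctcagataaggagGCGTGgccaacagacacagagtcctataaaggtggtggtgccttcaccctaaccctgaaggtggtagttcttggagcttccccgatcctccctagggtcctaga
Cyp1b1: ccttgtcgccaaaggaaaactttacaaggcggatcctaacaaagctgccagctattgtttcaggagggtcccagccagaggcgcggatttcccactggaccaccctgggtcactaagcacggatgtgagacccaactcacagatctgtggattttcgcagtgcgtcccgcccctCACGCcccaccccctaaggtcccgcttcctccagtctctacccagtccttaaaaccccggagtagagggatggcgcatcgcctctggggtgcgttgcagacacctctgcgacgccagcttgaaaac
Tiparp: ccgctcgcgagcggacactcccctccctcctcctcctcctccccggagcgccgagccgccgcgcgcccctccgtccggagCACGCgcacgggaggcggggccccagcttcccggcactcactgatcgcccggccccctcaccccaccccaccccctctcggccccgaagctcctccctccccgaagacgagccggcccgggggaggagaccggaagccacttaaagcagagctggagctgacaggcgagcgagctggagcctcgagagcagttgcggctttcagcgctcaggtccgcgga
These 5 letters occur in 32.4% of the 32851 windows of all genes, so a match is a description of the sequence and not a site. Among the Ah receptor target enzymes, 4 had a window, and 3 of them (Cyp1a1, Cyp1b1 and Gsta2) held the letters.

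Of the Ah receptor's target enzymes 4 of 5 tested rose, as did Tiparp, and Cyp1a1 had the largest rise of all genes that passed. Cyp1a1, the P450 enzyme that is the classic readout of the receptor, stood at 9252.2, 8898.8 and 9718.0 on the MCA arrays, at 2497.1, 2087.9 and 2909.2 on the BaP arrays and at 29.3, 41.8 and 54.3 on the DMSO arrays. The 3 groups did not overlap, and the difference from DMSO was 7.35 ± 0.17 (adjusted p = 4.74e-21). Cyp1b1, a related P450 enzyme that also activates polycyclic hydrocarbons, had levels of 18627.2, 18627.2 and 16964.3 with MCA, 14256.7, 15714.2 and 14087.5 with BaP, and 6328.1, 6423.2 and 5540.4 with DMSO. Again no array of one group reached another, and the difference from DMSO was 1.57 ± 0.08 (adjusted p = 5.54e-13). The first pair of MCA values is equal because the gene took the same rank on both arrays under quantile normalisation.

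Tiparp, which attaches ADP-ribose to proteins and restrains the receptor, had levels of 10938.2, 9327.9 and 8155.2 with MCA and 3287.6, 3224.5 and 2735.3 with DMSO. The arrays did not overlap, and the difference was 1.61 ± 0.14 (adjusted p = 1.93e-08). Nqo1, a quinone reductase that answers both to the Ah receptor and to Nrf2, had 816.0, 856.4 and 861.0 with MCA and 477.0, 365.6 and 379.4 with DMSO, a difference of 1.03 ± 0.12 (adjusted p = 1.39e-06). Aldh3a1, an aldehyde dehydrogenase of the same battery, was dim at 86.1, 132.2 and 131.4 with MCA and 27.3, 34.8 and 48.9 with DMSO. Its difference of 1.32 ± 0.27 passed (adjusted p = 0.00449), but not in a fit of the 6 arrays alone (adjusted p = 0.0647).

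The median difference of the 5 target enzymes tested, from a list of 9, was 1.32. Of them 4 rose and 0 fell, beside 1.52% higher and 1.33% lower of all genes tested. The remaining one, the glutathione transferase Gsta2, was at -1.04 (adjusted p = 0.141) and is named after its value was seen. The receptor itself did not differ beyond the spread: Ahr was at 1655.9, 1824.6 and 1629.2 with MCA and 1812.5, 1962.7 and 1756.1 with DMSO, a difference of -0.11 ± 0.12 (95% limits -0.35 to 0.12, adjusted p = 0.815). Its partner Arnt was at -0.17 ± 0.20 (limits -0.58 to 0.24, adjusted p = 0.862). The repressor Ahrr is on the array but was too dim to be tested.

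**Figure D2:**
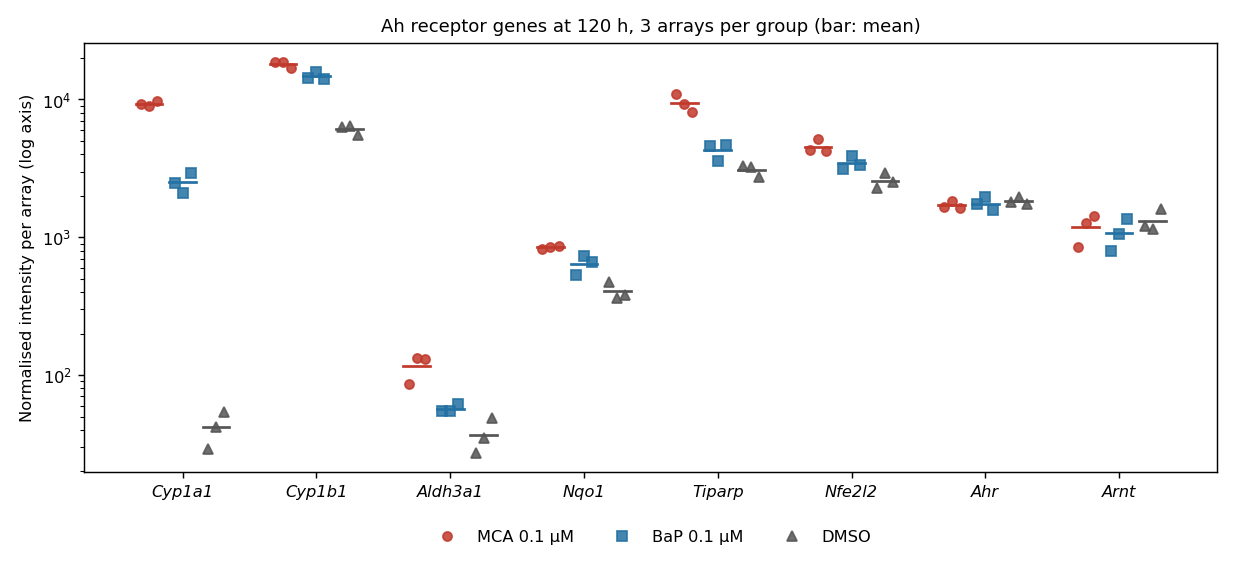
Normalised intensity per array on a log axis for genes of the Ah receptor pathway and Nfe2l2, with MCA, BaP and DMSO side by side at 120 h and a bar at each mean of 3 arrays. Cyp1a1 stands near 9290 with MCA, 2498 with BaP and 41.8 with DMSO, while the arrays of Ahr and Arnt overlap.

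Detoxification genes beyond the receptor's own targets were next compared. The median of 18 other xenobiotic enzymes and transporters was 0.12. With the replicate block 5 rose and 1 fell, and with 1 median per array 0 rose and 0 fell. In the main fit 3 rose and 0 fell, beside 1.52% higher and 1.33% lower of all genes tested. Those 3 were the glutathione transferase Gstm1 (0.46 ± 0.09), the microsomal epoxide hydrolase Ephx1 (0.35 ± 0.09), which acts on the epoxides that P450 enzymes make, and Gstm2 (0.26 ± 0.06). A second probe set of Gstm1 was at -0.03, and 1 of the list rose without MCA replicate 2, MCA replicate 3 or control replicate 1. Ephx1 failed without any array except MCA replicate 1 (adjusted p of 0.0575 to 0.179), and Gstm2 failed without MCA replicate 2 or 3 or control replicate 1 (0.0744 to 0.114). Nfe2l2, which encodes Nrf2, the regulator of antioxidant genes, had 4275.5, 5124.2 and 4210.4 with MCA and 2280.2, 2940.6 and 2515.0 with DMSO. It rose by 0.81 ± 0.10 without overlap (adjusted p = 1.16e-05), though not on the mean of its probe sets (adjusted p = 0.23). It was the only one of 23 Nrf2 and oxidative stress genes to pass, beside 2.85% of all genes tested. With the block 5 were higher and 2 lower. Cpox, which makes a late precursor of heme, the cofactor of P450 enzymes, was the only one of 10 heme genes to pass. It stood at 955.9, 717.8 and 963.2 with MCA and 247.8, 504.0 and 467.4 with DMSO (1.13 ± 0.30, adjusted p = 0.0379), and it did not pass without MCA replicate 1, MCA replicate 3 or control replicate 1 (adjusted p = 0.132, 0.13 and 0.253).

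Genes that respond to DNA damage were next compared, since metabolites of MCA bind DNA. Of 25 p53 targets tested, 1 rose and 0 fell, beside 1.52% higher and 1.33% lower of all genes tested. Their median was 0.07, and with the block 4 rose and 1 fell. The one that rose without the block, Ier3, an early response gene that affects cell survival, was at 6205.6, 5104.7 and 5666.1 with MCA and 2804.6, 1849.7 and 2353.9 with DMSO. Its arrays did not overlap, and it rose by 1.29 ± 0.15 (adjusted p = 3.91e-06). Cdkn1a, the p53-induced inhibitor of cyclin-dependent kinases, was at 3555.7, 2743.7 and 2506.0 with MCA and 2644.7, 2217.6 and 1881.2 with DMSO. The groups overlapped and the difference of 0.38 ± 0.23 did not pass (adjusted p = 0.573), but each MCA array was above its same-numbered DMSO array and the block gave an adjusted p of 0.00152. Mdm2, the ligase that degrades p53, was at 0.05 ± 0.05 (limits -0.05 to 0.15, adjusted p = 0.794). Of 32 DNA repair genes 0 passed limma's threshold. An unadjusted p under 0.05 was found for 4, 2 in each direction, beside 1289 of all 11384 genes. The block called 2 higher and 2 lower. The median of the 32 genes was 0.02. Those furthest from 0 were the checkpoint kinase Chek1 at -0.53 ± 0.15 (adjusted p = 0.0612, 0.046 without MCA replicate 2 and 0.000144 with the block) and the helicase Ercc2 at 0.49 ± 0.30 (adjusted p = 0.596). The other Chek1 probe set above the array median on all 30 arrays was at -0.04.

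Genes of cell division stood mostly below the controls, as they also did with BaP and AAF against the same DMSO arrays. Of 29 mitosis genes 28 were below 0, the median was -0.33, and 4 fell while 0 rose, beside 1.33% lower and 1.52% higher of all genes tested. With the block 15 fell, and with each array scaled to 1 median 0 did. The ones that fell were Cdc20, an activator of the anaphase-promoting complex (-0.90 ± 0.16, adjusted p = 0.00084), the kinetochore motor Cenpe (-0.63 ± 0.12), the securin Pttg1 (-0.47 ± 0.11) and the mitotic kinase Plk1 (-0.45 ± 0.12, adjusted p = 0.0457). Cdc20 was at 1594.9, 1496.7 and 1858.6 with MCA and 2134.9, 3510.8 and 3874.3 with DMSO. The arrays did not overlap, but control replicate 1 lay nearest to the treated arrays, and without it 9 mitosis genes fell, while without MCA replicate 2 or control replicate 3 only 2 did. The call of Plk1 was lost without any array except control replicate 1 (adjusted p up to 0.305), and that of Pttg1 without MCA replicate 2 or control replicate 3. Of 33 DNA replication genes 0 passed limma's threshold, and their median was -0.05. An unadjusted p under 0.05 was found for 4, 1 higher and 3 lower, beside 1289 of all 11384 genes. The block called 1 higher and 3 lower. The polymerase subunit Pola1 was at -0.43 ± 0.18 and the clamp loader subunit Rfc4 at -0.35 ± 0.16, with adjusted p of 0.317 and 0.381, against 0.00308 and 0.0411 with the block. Of 20 genes of growth arrest and quiescence 1 rose, the transcription factor Klf9 (0.92 ± 0.16), and 2 fell, Apod and the cyclin-dependent kinase inhibitor Cdkn2c (-0.39 ± 0.09), against 5 and 3 with the block. Cdkn2c failed without MCA replicate 3 or control replicate 1 (adjusted p = 0.0533 and 0.0694).

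Interferon-stimulated genes, which interferon turns on against viruses through Stat and Irf factors at an element with paired GAAA letters, were next compared. Windows of 3 that fell are printed with capitals marking GAAA, any 2 bases and GAAA again, on either strand (TTTC, 2 bases and TTTC when read on the strand opposite), for Rsad2 (chr12:26456403-26456702, - strand), Ifit1 (chr19:34640639-34640938, + strand) and Oas1a (chr5:120907476-120907775, - strand). Rsad2 holds 1 match, Ifit1 holds 2, and Oas1a holds 2 that overlap each other.
Rsad2: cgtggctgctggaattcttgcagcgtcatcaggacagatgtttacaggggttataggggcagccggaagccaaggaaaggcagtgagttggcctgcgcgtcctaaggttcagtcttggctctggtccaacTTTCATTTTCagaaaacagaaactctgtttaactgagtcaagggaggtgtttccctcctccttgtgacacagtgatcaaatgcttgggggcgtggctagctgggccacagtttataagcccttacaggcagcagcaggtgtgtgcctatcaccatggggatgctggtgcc
Ifit1: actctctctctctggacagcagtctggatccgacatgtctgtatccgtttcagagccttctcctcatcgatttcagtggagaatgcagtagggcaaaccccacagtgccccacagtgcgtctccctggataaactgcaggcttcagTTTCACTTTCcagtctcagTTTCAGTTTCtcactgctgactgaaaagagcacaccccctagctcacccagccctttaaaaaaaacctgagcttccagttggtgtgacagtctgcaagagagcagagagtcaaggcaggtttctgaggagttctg
Oas1a: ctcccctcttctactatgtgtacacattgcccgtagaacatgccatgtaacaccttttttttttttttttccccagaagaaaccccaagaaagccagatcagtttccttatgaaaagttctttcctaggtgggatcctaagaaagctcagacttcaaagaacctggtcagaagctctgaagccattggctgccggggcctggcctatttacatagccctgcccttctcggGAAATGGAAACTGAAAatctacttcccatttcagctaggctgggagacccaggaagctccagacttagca
The motif occurs in 3.44% of the 32851 windows. Of the 28 genes of the list that were tested, 21 had a window and 10 of those held the motif. Among the list members that passed, 12 had a window and 7 held it.

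Of the 28 interferon-stimulated genes 17 fell, 1 rose and 10 did not pass, beside 1.33% and 1.52% of all genes tested, and the median was -0.70. The falls ran from -1.90 to -0.44, and 15 to 16 members fell whichever single array was left out. With each array scaled to 1 median 8 fell and 0 rose, and with the block 21 fell and 3 rose. Rsad2 (viperin, an antiviral enzyme) was at 324.2, 248.2 and 286.4 with MCA, 555.7, 617.4 and 680.9 with BaP, and 1207.1, 1134.9 and 991.4 with DMSO. The 3 groups did not overlap, and the difference from DMSO was -1.90 ± 0.14 (adjusted p = 1.6e-09). Ifit1, which binds viral RNA, was at 1291.5, 1376.2 and 1287.1 with MCA, 2622.6, 2230.7 and 2160.3 with BaP, and 3613.2, 3991.3 and 2924.1 with DMSO, a difference from DMSO of -1.39 ± 0.16 (adjusted p = 2.77e-06). Oas1a, a sensor of double-stranded RNA, was at 1091.9, 1073.8 and 1305.5 with MCA and 2432.2, 2929.5 and 3494.1 with DMSO, a difference of -1.33 ± 0.13. In both genes every MCA array lay below every DMSO array.

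The antiviral GTPase Mx2 (-1.71 ± 0.42), the chaperone Rtp4 (-1.12 ± 0.10), the chemokine Cxcl10 (-1.05 ± 0.21) and Usp18, which removes Isg15 from proteins and restrains interferon signalling (-1.03 ± 0.09), also fell. The call of Mx2 was lost without MCA replicate 1, MCA replicate 2 or any of the 3 control arrays, with adjusted p between 0.0538 and 0.0978. The one that rose was Irf1, a transcription factor that many cytokines induce, at 0.51 ± 0.13 (adjusted p = 0.0287), named after its value was seen, and it did not pass without MCA replicate 1 or without any of the 3 control arrays. The 10 members that did not pass lay between -0.57 and 0.32. Outside the list, 2 more genes of interferon responses were among the 15 largest falls. The chemokine Cxcl11 had 25.7, 71.2 and 79.5 with MCA and 204.3, 280.8 and 261.7 with DMSO (-1.90 ± 0.30), and Ifi27l2a had 1690.0, 1581.9 and 1967.0 with MCA and 4474.0, 4944.1 and 5154.4 with DMSO (-1.47 ± 0.14).

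**Figure D3:**
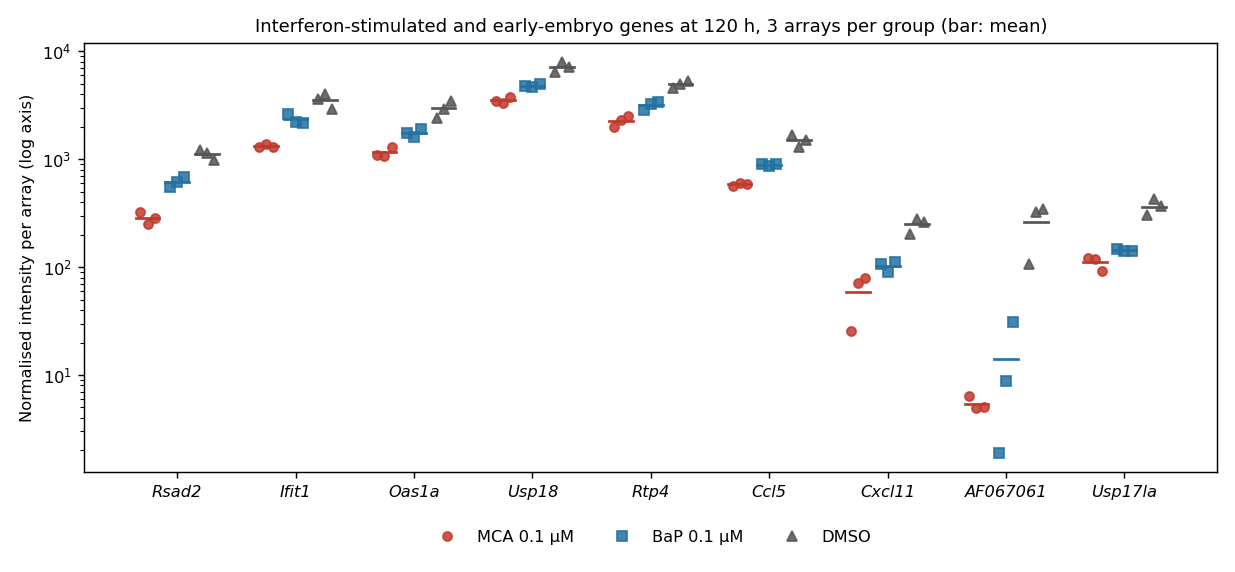
Normalised intensity per array on a log axis for 9 genes that fell, with MCA, BaP and DMSO side by side at 120 h and a bar at each mean of 3 arrays. In every gene shown the MCA arrays lie below the DMSO arrays, and for Rsad2, Ifit1, Usp18 and Ccl5 they also lie below the BaP arrays.

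Inflammation genes moved in both directions, with 5 higher and 1 lower of 21, beside 1.52% higher and 1.33% lower of all genes tested. Their median was 0.12. With the block 5 rose and 4 fell, and with 1 median per array 2 rose and 1 fell, with Ccl8, Cxcl5 and Csf1 not passing. Ptgs2, the inducible cyclooxygenase that makes prostaglandins, was at 1203.2, 851.2 and 711.9 with MCA, 552.0, 416.6 and 373.3 with BaP, and 175.3, 178.4 and 156.8 with DMSO. The groups did not overlap, and the difference from DMSO was 2.30 ± 0.24 (adjusted p = 3.28e-07). Chil1, a secreted chitinase-like protein, was at 205.4, 348.5 and 357.3 with MCA and 49.9, 36.1 and 61.1 with DMSO, a difference of 2.28 ± 0.31 (adjusted p = 2.56e-05). The chemokines Ccl8 (0.435 ± 0.098) and Cxcl5 (0.40 ± 0.09) and the macrophage growth factor Csf1 (0.40 ± 0.10) rose by less, and 2 to 5 of the list rose when an array was left out, with 2 without control replicate 1. The call of Csf1 was lost without any array except MCA replicate 2 (adjusted p up to 0.169), that of Cxcl5 without MCA replicate 3 or control replicate 1, and that of Ccl8 without control replicate 1 or 2. Ccl5, a chemokine that interferons also induce, was at 561.4, 598.3 and 591.8 with MCA and 1658.3, 1303.6 and 1514.8 with DMSO, and fell by 1.32 ± 0.12 on the log2 scale (adjusted p = 3.29e-08).

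The matrix genes that passed were lower. Of 35 genes of the extracellular matrix 6 fell and 0 rose, beside 1.33% lower and 1.52% higher of all genes tested, and the median was -0.13. At an unadjusted p under 0.05, 12 were lower and 2 higher, beside 1289 of all 11384 genes in either direction. With the block 12 fell and 2 rose, with 1 median per array 3 fell and the list's median was -0.02, and with an array left out 3 to 7 fell, the lowest without MCA replicate 2. Postn (periostin, an adhesion protein of remodelling tissue) was at 1466.7, 1978.5 and 1631.3 with MCA and 5497.7, 5785.4 and 4893.7 with DMSO. Its difference was -1.67 ± 0.19 (adjusted p = 2.26e-06). The proteoglycan Lum (-1.51 ± 0.34), the fibrillar collagen Col11a1 (-1.42 ± 0.22), the fibulin Fbln1 (-0.60 ± 0.13) and the collagens Col3a1 (-0.42 ± 0.11) and Col5a2 (-0.29 ± 0.07) also fell. The arrays of Col3a1 overlapped on the probe set used. A second probe set of each, above the array median on all 30 arrays, was at -1.04 for Col3a1 and -0.95 for Col5a2. The call of Lum was lost without MCA replicate 1 (adjusted p = 0.0802), that of Fbln1 without MCA replicate 2 or control replicate 3 (0.0917 and 0.075), and those of Col3a1 and Col5a2 without MCA replicates 2 or 3 or control replicates 1 or 2 (up to 0.256 and 0.175).

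Of 21 contractile and TGF-beta target genes 2 rose and 3 fell, beside 1.52% higher and 1.33% lower of all genes tested. Their median was 0.07. With the block 2 rose and 5 fell, and with 1 median per array 0 rose and 1 fell. The smooth muscle actins Actg2 (-0.97 ± 0.15) and Acta2 (-0.44 ± 0.08) and the matrix protein Tgfbi (-0.46 ± 0.10) fell, while the differentiation inhibitor Id2 (0.55 ± 0.15) and the tropomyosin Tpm1 (0.31 ± 0.07) rose. The call of Id2 was lost without any array except control replicate 2 (adjusted p up to 0.224) and that of Tgfbi without control replicate 2 (0.079). The rises numbered 0 without MCA replicate 1, and a second probe set of Tpm1 was at -0.42. Of 16 matrix proteases and inhibitors 1 rose, the aggrecan-cutting protease Adamts4, which had 2357.9, 2178.0 and 1898.9 with MCA and 807.5, 874.3 and 784.5 with DMSO. That difference was 1.36 ± 0.14 (adjusted p = 2.51e-07). With the block 3 of the proteases and inhibitors rose and 4 fell.

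Among the other large rises, Gpc1, a heparan sulfate proteoglycan that holds growth factors at the cell surface, was at 8634.9, 6285.0 and 5841.1 with MCA and 1950.5, 1893.3 and 1389.2 with DMSO (1.97 ± 0.19, adjusted p = 1.42e-07). Ccn5, a secreted matricellular protein that restrains growth of smooth muscle, was at 845.1, 1059.3 and 765.3 with MCA and 231.7, 257.9 and 270.1 with DMSO (1.74 ± 0.14). Olfm1, a secreted glycoprotein best known in neurons, was at 467.6, 476.0 and 491.1 with MCA and 85, 104.3 and 117.8 with DMSO (2.07 ± 0.47, adjusted p = 0.0103). The call of Olfm1 was lost without control replicate 1 (adjusted p = 0.0509). The proton-gated channel Asic1 (1.63 ± 0.19), the transcription factor Atoh8 (1.61 ± 0.40), the water channel Aqp5 (1.56 ± 0.24), Phlda1 (1.40 ± 0.29) and the potassium channel Kcnk5 (1.31 ± 0.15) completed the 15 largest rises. The call of Atoh8 was lost without any one of the arrays except control replicate 3, with adjusted p up to 0.217, and that of Phlda1 without MCA replicate 1 or control replicate 3 (adjusted p = 0.0602 and 0.0534).

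The deepest fall was that of AF067061, at 6.4, 4.9 and 5.0 with MCA, 1.9, 8.8 and 31.1 with BaP, and 107.2, 325.6 and 344.3 with DMSO. The MCA and BaP arrays overlapped and both lay below DMSO, with MCA at -3.53 ± 0.31 from DMSO (adjusted p = 2.22e-08). Its probe set is of a type that can bind several related transcripts, so which copy it measured is uncertain. Tcstv1, named for the earliest cleavage stages of the mouse embryo, had 17.9, 16.6 and 4.9 with MCA and 60.4, 107.2 and 110.7 with DMSO (-1.90 ± 0.27). Usp17la, of a repeated family of deubiquitinating enzymes, had 120.5, 118.0 and 92.4 with MCA and 302.3, 423.8 and 365.5 with DMSO (-1.58 ± 0.14). BC080696 (-1.78 ± 0.34) and 3110040M04Rik (-1.45 ± 0.27) fell too, from levels of at most 73.3 on any DMSO array. Tcstv1 and Usp17la have near-identical copies, so their values are uncertain in the same way, and no detection call came with the values, so it is not known which of the dim levels lie above background.

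Apod, a lipocalin that rises in resting fibroblasts, was at 525.6, 740.0 and 816.2 with MCA and 1964.9, 2978.4 and 2924.8 with DMSO. It fell (-1.89 ± 0.26, adjusted p = 2.63e-05), but not on the mean of its probe sets (adjusted p = 0.257). The carboxypeptidase Cpm (-1.46 ± 0.40) and the protease inhibitor Serpinb1a (-1.43 ± 0.38) were dim, and their calls were lost without any of 4 and 3 single arrays. For Cpm these were MCA replicates 2 and 3 and control replicates 2 and 3, with adjusted p between 0.121 and 0.176. For Serpinb1a they were MCA replicate 1 and control replicates 1 and 3, with adjusted p between 0.0614 and 0.309.

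In the remaining lists the main fit's calls stand beside 1.52% higher and 1.33% lower of all genes tested. Those with the block stand beside 749 higher and 594 lower of 11384 genes. A count of 1 gene in a short list says little about that list. Of 22 early response genes, the vascular transcription factor Klf2 (1.20 ± 0.20) and the AP-1 subunit Fosl2 (0.70 ± 0.15) rose and the orphan nuclear receptor Nr4a1 (-1.19 ± 0.27) fell, with 6 lower under the block. The growth factor binding protein Igfbp4 (0.60 ± 0.13) was the 1 of 23 growth factors and receptors that passed, against 6 higher and 1 lower with the block. The sterol enzyme Cyp51 (-0.41 ± 0.08) was the 1 of 20 sterol synthesis genes that fell, against 5 with the block, and the lipogenic regulator Mid1ip1 (0.45 ± 0.08) the 1 of 15 fatty acid synthesis genes that rose, against 1 higher and 4 lower with the block. The heat shock protein Hspa4l (0.42 ± 0.10) was the 1 of 14 in its list, against 3 higher and 1 lower with the block. With 1 median per array, 0 of the sterol, fatty acid, heat shock and heme lists passed, and Nr4a1 did not.

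Of the lists of stress in the endoplasmic reticulum and Atf4 (28 genes) and of hypoxia and glycolysis (25 genes), 0 passed limma's threshold. At an unadjusted p under 0.05 they held 3 higher and 1 lower, and 5 higher and 0 lower. Of all 11384 genes, 1289 were under it in either direction. The block called 5 higher and 2 lower of the first list and 5 higher and 0 lower of the second. The members furthest from 0 were the chaperone Dnajc3 at 0.53 ± 0.16 (adjusted p = 0.0753) and the pseudokinase Trib3 at 0.44 ± 0.14 (0.103), and the carbonic anhydrase Car9 at -0.51 ± 0.28 and the stress gene Ddit4 at 0.47 ± 0.78. With the block the adjusted p was 0.000168 for Dnajc3, 0.00283 for Trib3 and 0.0229 for Ddit4, and Dnajc3 also passed without control replicate 2 (0.0495). Of the smaller lists, 4 named genes lost their call when a single array was left out, while Klf2, Cyp51 and Mid1ip1 kept theirs. Igfbp4 failed without MCA replicate 2 or control replicate 3, Hspa4l without MCA replicate 2 or 3 or control replicate 1 or 2, Fosl2 without MCA replicate 2 or control replicate 3, and Nr4a1 without MCA replicate 2 or 3 or control replicate 1.

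**Figure D4:**
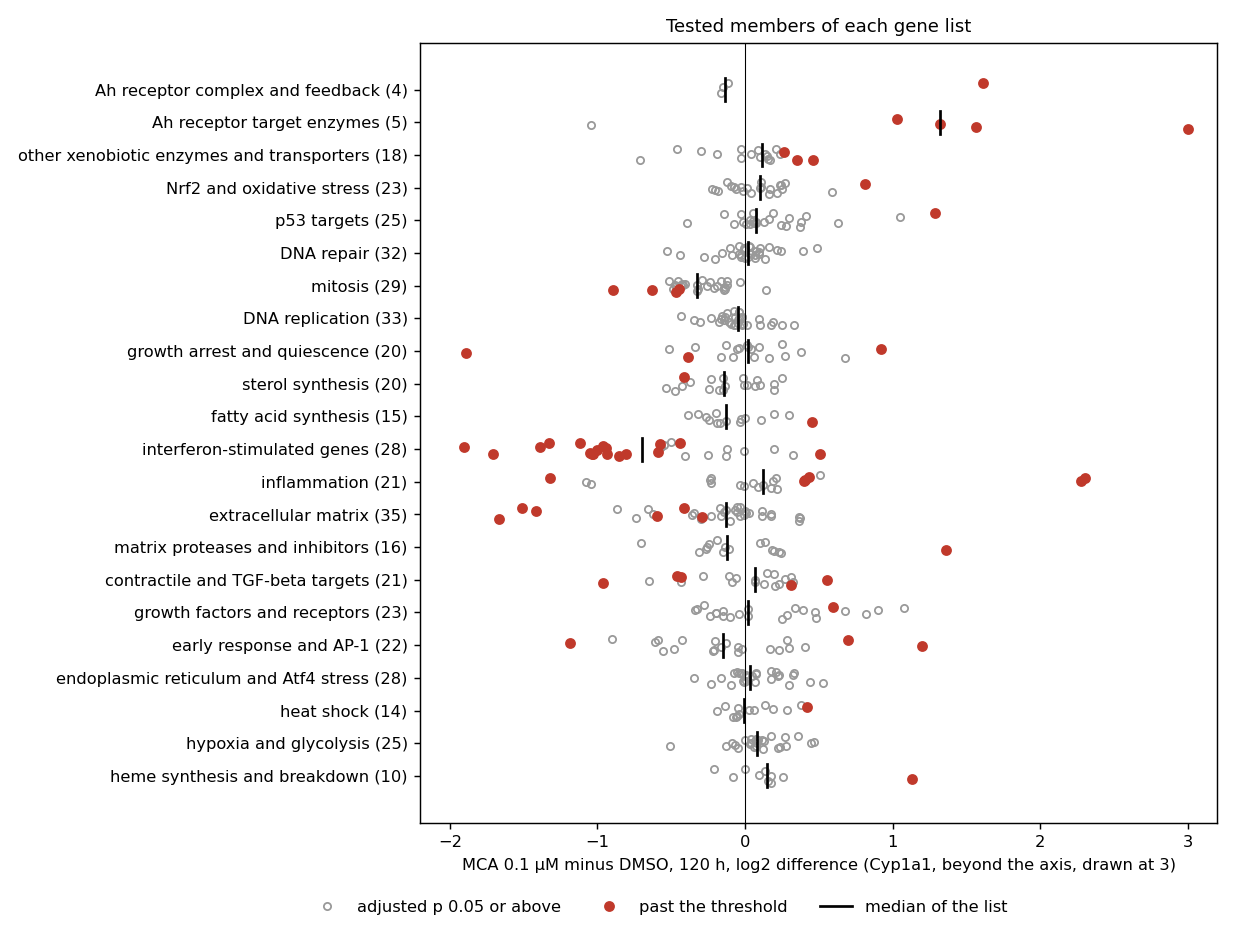
Each point is a tested member of a gene list (number tested in brackets), placed by MCA 0.1 µM minus DMSO at 120 h (log2), filled where the adjusted p was under 0.05, with a bar at the list's median. The interferon-stimulated genes have a median of -0.70, the mitosis genes of -0.33 and the Ah receptor target enzymes of 1.32, and Cyp1a1 at 7.35 is drawn at the axis limit.

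BaP was given at the same dose of 0.1 µM for the same 120 h, which allows a direct comparison of a pair of polycyclic hydrocarbons. MCA carries a methyl group and a saturated bridging ring that BaP lacks. This was the 1 pair of compounds compared. Of the 11384 genes 10 differed between MCA and BaP, which is 0.0878% of those tested, 4 higher (0.0351%) and 6 lower (0.0527%) with MCA, and the median of all genes was -0.02. At an unadjusted p under 0.05 there were 344, and with the block 94 passed (32 higher, 62 lower).

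Cyp1a1 and Tiparp were higher with MCA. For Cyp1a1 the MCA minus BaP difference was 1.90 ± 0.17 (limits 1.55 to 2.25, adjusted p = 3.81e-07). For Tiparp, which had 4615.8, 3602.0 and 4666.0 with BaP, it was 1.14 ± 0.14 (limits 0.86 to 1.42, adjusted p = 6.31e-05). Efnb1, a ligand of Eph receptors, had 859.3, 746.3 and 834.6 with MCA, 529.2, 484.4 and 414.0 with BaP and 371.9, 455.9 and 324.0 with DMSO. It was 0.76 ± 0.13 higher with MCA than with BaP (adjusted p = 0.00841), and the protease Adamts4 was 0.73 ± 0.14 higher (adjusted p = 0.0297).

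Of the interferon-stimulated list 3 genes were lower with MCA than with BaP, Rsad2 by -1.07 ± 0.14 (limits -1.36 to -0.78, adjusted p = 0.000187), Ifit1 by -0.81 ± 0.16 (adjusted p = 0.0461) and Usp18 by -0.46 ± 0.09 (adjusted p = 0.0474). The list's median difference between the compounds was -0.37. The chemokine Ccl5 was lower by -0.59 ± 0.12 (adjusted p = 0.0461), Csmd3, a large membrane protein with complement-like domains, by -0.98 ± 0.19 (adjusted p = 0.0297), and Rpl22l1, a ribosomal protein paralog, by -0.53 ± 0.09 (adjusted p = 0.00501). Rpl22l1 was at 8853.5, 8290.0 and 10803.9 with MCA, 12756.7, 13544.5 and 13773.3 with BaP and 14685.0, 13237.6 and 14989.8 with DMSO. In these 10 genes no MCA array overlapped a BaP array, as was so for 1.66% (higher) and 3.7% (lower) of all genes.

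The number of genes that differed fell to between 3 and 6 when an array was left out: 3 without MCA replicate 1, 4 without MCA replicate 2 or BaP replicate 3, 5 without MCA replicate 3 or BaP replicate 2, and 6 without BaP replicate 1. Cyp1a1, Tiparp and Rsad2 passed in each of these, while Ifit1, Ccl5 and Usp18 passed in none (adjusted p up to 0.312). Csmd3 passed only without BaP replicate 3. The call of Efnb1 was lost without MCA replicate 1 or 3 or BaP replicate 3, that of Adamts4 without MCA replicate 1 or 2 or BaP replicate 2 or 3, and that of Rpl22l1 without MCA replicate 1 or 2 or BaP replicate 3, with adjusted p between 0.0525 and 0.26. For several genes the difference between the compounds did not pass, though an alternative fit called some of them. The fit of all 60 arrays had earlier been found to call too many unchanged genes in the noisier second approach. Cyp1b1 differed by 0.30 ± 0.08 (limits 0.13 to 0.46, adjusted p = 0.325, and 0.00299 with the block and 0.0368 with all 60 arrays), Nqo1 by 0.39 ± 0.12 (limits 0.16 to 0.63, adjusted p = 0.528), Aldh3a1 by 0.84 ± 0.27 (limits 0.28 to 1.40, adjusted p = 0.782) and Ptgs2 by 1.0 ± 0.24 (limits 0.51 to 1.49, adjusted p = 0.159, and 5.53e-05 with the block and 0.00265 with all 60 arrays). Cdkn1a differed by 0.34 ± 0.23 (limits -0.13 to 0.80, adjusted p = 0.0299 with the block) and Mdm2 by 0.04 ± 0.05 (limits -0.07 to 0.14). With the block, Gpc1 (0.67), Aqp5 (0.66) and Nfe2l2 (0.39) were also higher and Oas1a (-0.59), Rtp4 (-0.47), Ifi27l2a (-0.64), Postn (-0.63) and Col11a1 (-0.92) also lower with MCA than with BaP, with adjusted p from 8.54e-05 to 0.0242.

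The other treatments at 120 h shared the 3 DMSO arrays with MCA, so their calls are not independent of those above and only their values are set side by side. Against DMSO, 182 genes passed with BaP (1.6%), 70 with AAF (0.615%) and 0 with DAT at 0.2 µM (0%), where limma gave 610 at an unadjusted p under 0.05. Cyp1a1 differed from DMSO by 7.35 with MCA, 5.45 with BaP, 3.82 with AAF and 0.01 with DAT. For Cyp1b1 these differences were 1.57, 1.27, 0.95 and 0.14 in the same order. Ptgs2 gave 2.30 with MCA, 1.30 with BaP, 1.09 with AAF and -0.0002 with DAT. Tiparp gave 1.61, 0.47, 0.32 and -0.17, and Nqo1 1.03, 0.64, 0.09 and -0.28. Rsad2 gave -1.90, -0.83, -1.04 and -0.25, and AF067061 -3.53, -3.17, -1.65 and -0.55. The median of the mitosis list was -0.33 with MCA, -0.22 with BaP, -0.40 with AAF and -0.04 with DAT. Of its 29 genes 28, 28, 29 and 20 were below 0 in the same order. The median of the interferon-stimulated list was -0.70, -0.40, -0.40 and -0.12. Doses of AAF and DAT differ from that of MCA.

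MCA was also given at other doses, on other arrays and with other DMSO controls than the comparison above. The arrays at 20 µM and their controls were in the same fit and share its estimate of spread, so those calls are not wholly independent. At 20 µM for 24 h in the second approach, 169 genes passed (1.48%), 81 higher (0.712%) and 88 lower (0.773%). Of the 173 genes higher at 0.1 µM for 120 h, 38 were also higher at 20 µM for 24 h, which is 22% of the first list and 46.9% of the second. Of the 151 lower genes 30 were also lower, 19.9% and 34.1% of the lists, and 0 went the opposite way in either direction. Cyp1a1 differed from its controls by 5.04 there, Tiparp by 1.71, Cyp1b1 by 1.31, Nqo1 by 1.13 and Ptgs2 by 1.28, and all of these passed. Of the interferon-stimulated list 7 fell and 2 rose at 20 µM for 24 h with a median of -0.37, among them Ifit1 (-0.95) and Rtp4 (-0.75). Rsad2 was at -0.46 (adjusted p = 0.102), Postn at -0.47 (adjusted p = 0.32) and AF067061 at -0.48 (adjusted p = 0.649). Of the mitosis list 1 rose and 0 fell, with a median of -0.03. Dose and time both differ here, and the difference between the responses was not tested.

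At 2 µM for 120 h in the first approach, 5005 genes passed (44%), 2406 higher (21.1%) and 2599 lower (22.8%), in a fit of that approach's arrays alone. Of the 173 genes higher at 0.1 µM, 80 were also higher there (46.2% of the first list and 3.33% of the second) and 32 were lower (18.5%). Of the 151 lower genes 75 were also lower (49.7% and 2.89%) and 32 were higher (21.2%). Cyp1a1 rose by 5.56, Cyp1b1 by 1.56, Aldh3a1 by 3.03, Nqo1 by 1.99 and Ptgs2 by 2.61, and Postn (-1.92) fell in the first approach as well.

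The mitosis list went the other way in the first approach, where 29 of 29 rose at 2 µM with a median of 1.25, and 32 of 33 DNA replication genes rose with a median of 1.15. Of the 28 interferon-stimulated genes 7 fell and 3 rose there, beside 22.8% lower and 21.1% higher of all genes tested. The falls were thus about as frequent as among all genes. The list's median was -0.10, and Rsad2 was at -0.18 (adjusted p = 0.303). Of the 35 extracellular matrix genes 24 fell and 2 rose, with a median of -0.46. The counts of the mitosis, replication and matrix lists stand beside the same 22.8% lower and 21.1% higher. Approach, dose and scaling of the deposited values differ between these comparisons and cannot be told apart.

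**Figure D5:**
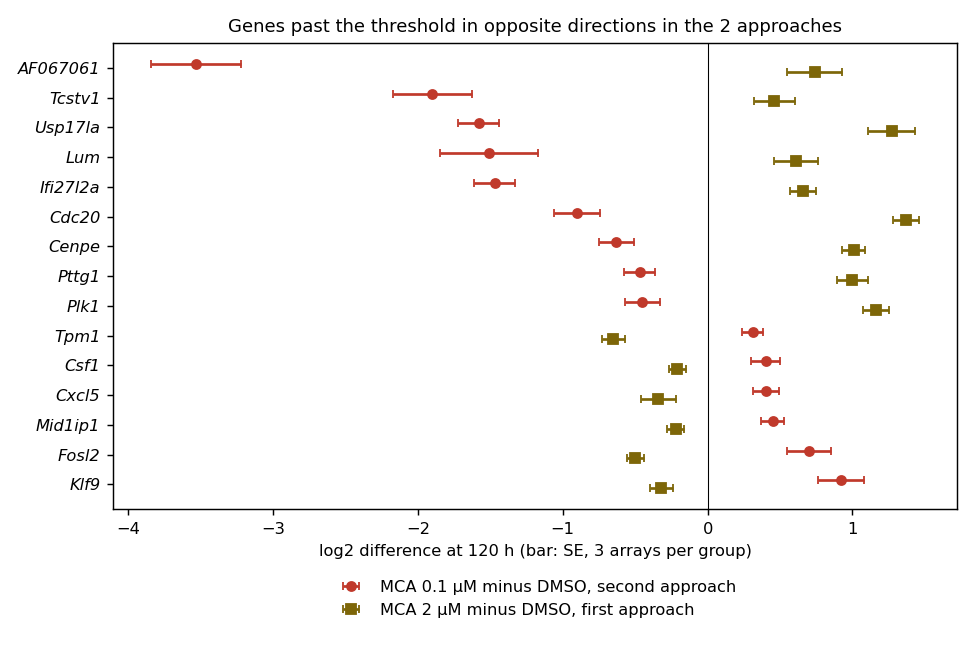
The log2 difference from DMSO at 120 h (± SE, 3 arrays a group) for 15 named genes that passed in opposite directions, with MCA 0.1 µM in the second approach above MCA 2 µM in the first. Cdc20 lies at -0.90 and 1.37, and Klf9 at 0.92 and -0.32. The genes shown were picked for their opposite directions. Of all genes higher at 0.1 µM, 18.5% were lower at 2 µM, beside 22.8% of all genes tested. Of those lower at 0.1 µM, 21.2% were higher at 2 µM, beside 21.1%.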

How the data were processed

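Biotin-labelled cRNA from total RNA was read on single-colour arrays of 45101 probe sets, per the labels' protocols, and the submitters' processing notes name GCOS. The deposited values are linear intensities, summarised and scaled by the authors. Their trimmed mean (2% off each end) was 500 on all second-approach arrays and 152.9 to 187.6 in the first, so levels were not compared across approaches. Background correction and summarisation are not given in the sources used here.

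Of the probe sets, 34958 had 1 gene symbol, 932 several and 9211 were not listed. Symbols were updated by gene identifier, and 204 probe sets kept the platform's. For each of 18194 symbols the brightest probe set on average was used, and genes above the array median on at least 3 of 30 arrays were tested. Values were log2(intensity + 16), quantile normalised within the 30 arrays of the second approach. In R 4.3.3, limma 3.58.1 fitted 10 group means at once (20 residual degrees of freedom, mean-variance trend) and gave two-sided tests, Benjamini-Hochberg adjusted over 11384 genes, and 95% limits. Scripts were tested on simulated data. The number of arrays limits the precision. Members and lists were chosen with earlier results of these data known.

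The genes named were the main Ah receptor and p53 genes, the 15 largest rises and falls against DMSO that passed without overlap of arrays, up to 6 members that passed in each list (2 where 0 passed), and up to 8 in each direction against BaP. Replicate numbers were checked as pairs through the deviations of arrays from their group means. Same-numbered MCA and DMSO arrays correlated at 0.471, 0.258 and 0.65 across genes, and MCA and BaP arrays at 0.287, 0.318 and 0.551, so the number was taken to pair arrays. What a number stands for is not in the labels. Alternatives changed the fit, block, normalisation, added constant, filter, probe set rule, variance model and arrays left out.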

Additional observations from a re-analysis of the deposited data

Results flagged for a closer look

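For 15 named genes all arrays of MCA 0.1 µM in the second approach lay to one side of their DMSO controls, and all arrays of MCA 2 µM in the first approach lay to the opposite side of theirs, at 120 h in both, with limma's threshold passed in each. The difference between the responses was not tested. The 15 genes were picked for their opposite directions. Of the 173 genes higher at 0.1 µM, 18.5% were lower at 2 µM, beside 22.8% of all genes tested. Of the 151 lower genes, 21.2% were higher at 2 µM, beside 21.1% of all genes tested. Opposite calls were thus no more than about as frequent as among all genes. Calls in the same direction made up 46.2% of the higher and 49.7% of the lower genes. Log2 differences from DMSO (± SE, n = 3 arrays a group) are given with 0.1 µM first. Lower at 0.1 µM and higher at 2 µM were AF067061 (-3.53 ± 0.31, against 0.74 ± 0.19), Tcstv1 (-1.9 ± 0.27, against 0.46 ± 0.14), Usp17la (-1.58 ± 0.14, against 1.27 ± 0.16), Lum (-1.51 ± 0.34, against 0.61 ± 0.15), Ifi27l2a (-1.47 ± 0.14, against 0.66 ± 0.09). The same held for the mitosis genes Cdc20 (-0.9 ± 0.16, against 1.37 ± 0.09), Cenpe (-0.63 ± 0.12, against 1.01 ± 0.08), Pttg1 (-0.47 ± 0.11, against 1.0 ± 0.11), Plk1 (-0.45 ± 0.12, against 1.16 ± 0.09). Higher at 0.1 µM and lower at 2 µM were Tpm1 (0.31 ± 0.07, against -0.65 ± 0.08), Csf1 (0.4 ± 0.10, against -0.21 ± 0.06), Cxcl5 (0.4 ± 0.09, against -0.34 ± 0.12), Mid1ip1 (0.45 ± 0.08, against -0.22 ± 0.06), Fosl2 (0.7 ± 0.15, against -0.50 ± 0.06), Klf9 (0.92 ± 0.16, against -0.32 ± 0.08). Dose, approach and the scaling of the deposited values cannot be told apart.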

How the results depend on the processing

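Against DMSO 324 genes passed, and 746 did with all 60 arrays in 1 fit, 103 with the 6 arrays alone, 1343 with the replicate block and 132 with each array scaled to 1 median. Leaving out an array gave 230 to 268. Against BaP 10 passed, and 47 did with all 60 arrays, 1 with the 6 arrays alone, 6 with the 15 arrays at 120 h, 94 with the replicate block, 4 with 1 median per array and 5 with no filter (more genes tested). Leaving out an array gave 3 to 6. The cause of these shifts was not tested. Other settings moved either count by less than 1.5 times. Scaling to 1 median put the median of all genes at 0.10, against 0.02.

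Of 70 named genes that passed against DMSO, 0 changed sign in any setting run. All 70 also passed with the block and with all 60 arrays. Both fits called more genes than the main fit, so keeping the 70 there says little. The fit of all 60 arrays had earlier been found to call too many unchanged genes in the noisier second approach. Fewer passed with the 6 arrays alone (38), with 1 median per array (41) and with an array left out (54 to 60). Among the genes named, the block ended 0 calls, and those it added against DMSO are given with it above. No detection call was given for dim genes, and the added constant understates their changes.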
